A study of Homo sapiens with 2 samples.

Results

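Tight junctions seal the space between neighbouring epithelial cells near their apical side. Claudins form the paired strands that set which ions pass. Occludin and tricellulin are membrane proteins of the MARVEL family, JAM-A is an immunoglobulin-like adhesion molecule, and ZO-1 and cingulin are cytoplasmic scaffolds that tie the strands to actin. Snail is known to repress claudin and occludin genes by binding E-boxes, short CAGGTG-type sequences, in their promoters. MCF10A cells have been described as forming adherens junctions but few tight junctions.

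The tight junction genes described here were 9 of the 58735 genes in the count tables: CLDN1, CLDN3, CLDN4 and CLDN7 (claudins), OCLN (occludin), MARVELD2 (tricellulin), F11R (JAM-A), TJP1 (ZO-1) and CGN (cingulin). They were chosen by name, not by their counts, though with earlier results of these data known. All 9 were matched by Ensembl identifier in both tables. The RNA came from MCF10a-Snail-ER cells, a line derived from the non-tumorigenic human breast epithelial line MCF10A that stably carries Snail joined to the estrogen receptor. Cells had 100 nM tamoxifen for 1 day, which is known to activate such fusions, in medium with EGF, horse serum, hydrocortisone, cholera toxin and insulin. Polyadenylated RNA was read as native strands on a MinION (1 Nanopore direct RNA library) and as a TruSeq stranded mRNA library (1 Illumina library). Both libraries came from treated cells and neither was replicated, so no effect of Snail can be read from them, and every interval and test covers counting error only. In bulk RNA, fewer cells with a transcript and less transcript per cell cannot be told apart.

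The totals were 403235 Nanopore and 191741714 Illumina counts, and levels are given as counts per 1000000 (CPM). A single Nanopore count amounted to 2.48 CPM, and a single Illumina count to 0.00522 CPM. A gene at 0 was limited, at 3 counts, to 7.44 CPM and 0.0156 CPM. The epithelial label was checked on marker genes. All 6 basal markers (KRT5, KRT14, KRT17, TP63, ITGB4 and LAMB3) had counts in both libraries, and summed to 3326 CPM in the Nanopore and 3017 CPM in the Illumina library. The 6 general epithelial markers, all detected in both, summed to 962 and 956 CPM. KRT8, KRT18, SFN and CDH3 made up nearly all of these sums. EPCAM (3 and 770 counts, 4.02 CPM by Illumina) and KRT19 (1 and 88 counts, 0.459 CPM) were low. The 6 fibroblast markers summed to 2.48 and 6.40 CPM, with 1 of 6 detected by Nanopore. The 4 endothelial markers summed to 2.48 and 6.61 CPM, and the 4 blood markers to 12.4 and 10.96 CPM, of which CD14 made up nearly all and CD3E and HBB were at 0. SNAI1, whose counts can include the construct, had 709 CPM in the Nanopore and 860 CPM in the Illumina library.

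Promoters of these genes were searched for the E-box that Snail binds, because that sequence links these genes to the protein carried by the cells. RefSeq start sites (GRCh38.p14) gave 13 windows of 300 bases, 250 before to 50 after the start, for 8 of the 9 genes. F11R had no window and was not searched. The hexamer CAGGTG, or its reverse complement CACCTG, which is the same site read on the other strand, was present in 5 of these windows, in 4 genes (CLDN7, OCLN, TJP1 and CLDN3). Among all 35116 promoter windows of this length, 20.6% held at least 1 such site. One CLDN7 window held 5 sites, and 33 of all windows (0.094%) held 5 or more. The sites upstream of a start are printed below with 12 bases on either side or, for the last pair in CLDN7, as 30 bases that begin 12 before the first of the pair, 5′ to 3′ on the strand of the gene, with the hexamer in capitals.
CLDN7, chr17:7262635-7262664, minus strand, site beginning at base -174: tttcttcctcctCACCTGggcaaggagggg
CLDN7, chr17:7262596-7262625, minus strand, site at -135: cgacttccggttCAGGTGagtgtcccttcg
CLDN7, chr17:7262481-7262510, minus strand, sites at -20 and -9: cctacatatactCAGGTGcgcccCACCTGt
OCLN, chr5:69492502-69492531, plus strand, site at -33 of the first start: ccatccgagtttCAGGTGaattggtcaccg
OCLN, chr5:69492645-69492674, plus strand, site at -133 of the second start: tctaggacgcagCAGGTGggactcgcggcg
TJP1, chr15:29969120-29969149, minus strand, site at -88 of the outermost start: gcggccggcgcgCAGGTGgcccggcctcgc

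Further sites lay after a start: at base 6 in CLDN7, at base 36 in OCLN (second start) and at base 37 in CLDN3, counted from 1 at the start. The other CLDN7 window and the other 3 TJP1 windows held none, and neither did those of CLDN1, CLDN4, MARVELD2 and CGN. Of the genes with a site, TJP1 and CLDN7 had 48.9 and 20.6 CPM by Illumina, and OCLN and CLDN3 were at or near 0. Of those without a site in the window, MARVELD2 and CLDN1 had 7.66 and 3.74 CPM, and CLDN4 and CGN were near 0. F11R, at 96.2 CPM by Illumina, was not searched and belongs to neither group. Whether sites and levels are related was not tested. A match shows letters in a window only, and binding was not measured.

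The 9 genes fell into an expressed set of 5 and a set of 4 at or near 0 (see the plot of CPM by gene). F11R, TJP1, CLDN7, MARVELD2 and CLDN1 had Nanopore counts, while CLDN3, CLDN4, OCLN and CGN had none. The 5 held all 34 Nanopore counts of the 9 genes, and F11R alone held 58.8% of them. Illumina detected 8 of the 9 genes, with between 19 and 27 counts for CLDN4, OCLN and CGN and between 718 and 18449 for the 5. No Illumina count lay between 27 and 718.

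**Figure D1:**
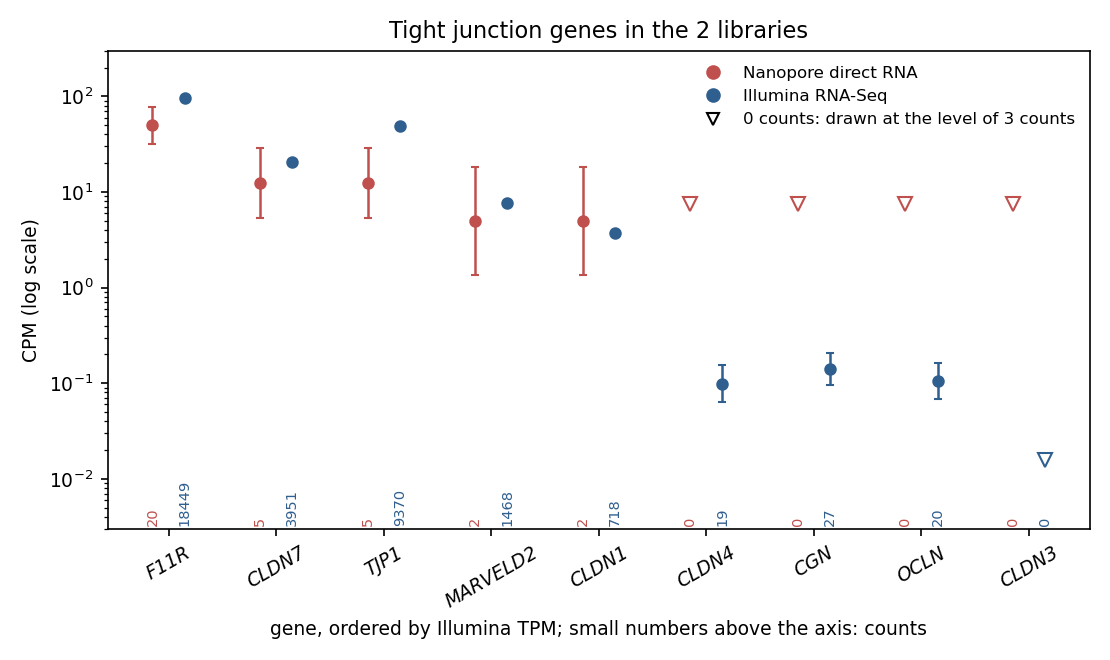
Level in CPM (log axis) of the 9 tight junction genes in the Nanopore library (red) and the Illumina library (blue), with 95% Wilson intervals for counting error; open triangles mark genes at 0, drawn at the level of 3 counts, and the small numbers are the counts. The 5 genes on the left had 2 to 20 Nanopore counts, and the 4 on the right had none and at most 27 Illumina counts.

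Levels were compared between genes per length, as Illumina length-scaled abundance (TPM, which sums to 1000000) by the length of the canonical transcript, since a fragmented library gives a long transcript more counts. F11R was highest at 32.1 TPM (95% Poisson interval 31.7 to 32.6), followed by CLDN7 at 20.7 (20.1 to 21.4), TJP1 at 10.5 (10.3 to 10.7), MARVELD2 at 2.68 (2.55 to 2.82) and CLDN1 at 1.68 (1.56 to 1.81). The intervals of these 5 did not overlap. Their order was the same with union exonic and with mean transcript length. By CPM, TJP1 (48.9) stood above CLDN7 (20.6): the canonical transcript of TJP1 has 7190 bases and that of CLDN7 has 1542. Next came CLDN4 at 0.0906 TPM (0.0545 to 0.141), CGN at 0.0428 (0.0282 to 0.0622) and OCLN at 0.0262 (0.0160 to 0.0404). CLDN4 stood 2.12 times as high as CGN per length (exact 95% interval 1.11 to 3.95), but the order of this pair depended on the length used, with a ratio of 0.991 (0.521 to 1.85) by union exonic and 0.476 (0.250 to 0.888) by mean transcript length. For CGN over OCLN the ratio was 1.64 (0.884 to 3.08), an interval that includes 1, against 2.30 (1.24 to 4.32) and 3.12 (1.69 to 5.88) by those 2 lengths. Among all genes with Illumina counts, F11R stood at the 87.2 percentile of TPM, CLDN7 at the 82.3, TJP1 at the 73.2, MARVELD2 at the 55.8, CLDN1 at the 51.1 and OCLN at the 9.80.

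The 4 claudins ranged from 0 to 20.7 TPM. CLDN7 (ENSG00000181885, chromosome 17, 7259903 to 7263983, hg38, minus strand, 4 exons in the canonical transcript), a claudin of simple and glandular epithelia, had 5 Nanopore and 3951 Illumina counts, or 12.4 CPM (5.30 to 29.0) and 20.6 CPM (20.0 to 21.3). CLDN1 (ENSG00000163347, chromosome 3, 190305707 to 190322446, minus strand, 4 exons), a barrier-forming claudin of the epidermis, had 2 and 718 counts, or 4.96 CPM (1.36 to 18.1) and 3.74 CPM (3.48 to 4.03). Both were therefore present in both libraries, CLDN7 the higher of the pair in the Illumina library and not distinguishable from CLDN1 at the Nanopore depth. CLDN4 (ENSG00000189143, chromosome 7, 73799542 to 73832690, plus strand, 1 exon), a barrier claudin that also binds the Clostridium enterotoxin, had 0 and 19 counts. CLDN3 (ENSG00000165215, chromosome 7, 73768997 to 73770270, minus strand, 1 exon), its neighbour and a second enterotoxin receptor, was at 0 in both, which limits it to 0.0190 TPM by Illumina.

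Among the 19 claudin genes looked up, CLDN7 ranked first per canonical length, with 53.1% of their summed TPM. CLDN12, which is not among the 9, was second at 13.6 TPM. With mean transcript length CLDN12 stood first, at 31.8 against 24.3 TPM, and it held 53.2% of the Illumina counts of the claudins against 35.3% for CLDN7. It had 15 Nanopore counts, more than the 4 claudins of the set together (7). By canonical length CLDN15 followed at 2.10 TPM with no Nanopore count, and CLDN1 was the fourth; by the other 2 lengths CLDN1 stood above CLDN15. These 4 were the claudins above 1 TPM. A further 10 lay between 0 and 1 TPM, and CLDN3, CLDN5, CLDN6, CLDN8 and CLDN19 were at 0 in both libraries. CLDN15 and the claudins at 0 outside the set were named after their values were seen.

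**Figure D2:**
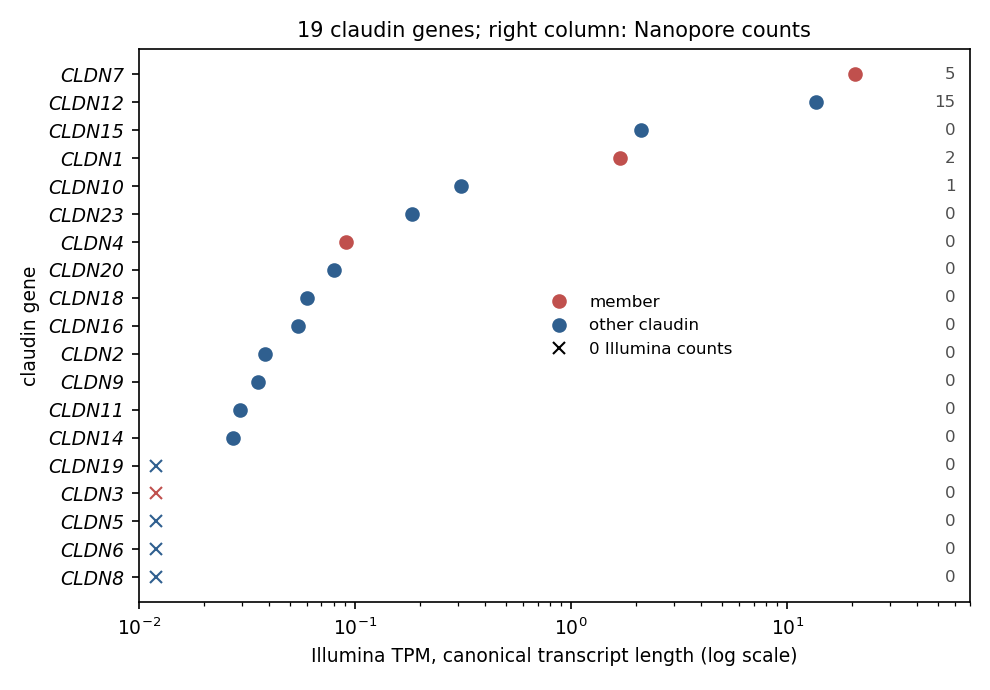
Illumina TPM (log axis, canonical transcript length) of 19 claudin genes, the 4 of the set in red and the other 15 in blue, with crosses for genes at 0 (placed at the left edge) and Nanopore counts in the right column. CLDN7 (20.7 TPM) and CLDN12 (13.6 TPM) stand apart from the rest. CLDN4 ranks 7 of the 19 at 0.0906 TPM, and CLDN3 is among the genes at 0.

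The 2 MARVEL family genes were listed at very different levels. MARVELD2 (ENSG00000152939, chromosome 5, 69415065 to 69444330, plus strand, 7 exons), whose protein sits where 3 cells meet, had 2 Nanopore and 1468 Illumina counts, or 4.96 CPM (1.36 to 18.1) and 7.66 CPM (7.27 to 8.06). OCLN (ENSG00000197822, chromosome 5, 69492292 to 69558104, plus strand, 9 exons), its close neighbour on the same chromosome, had 0 and 20 counts, or 0.104 CPM (0.0675 to 0.161) by Illumina. The OCLN value is uncertain for a reason of sequence. Of the 6181 bases of its canonical transcript, 5112 aligned to copies elsewhere on chromosome 5 of the primary assembly, 1 of them the pseudogene OCLNP1 (71069793 to 71093193, 0.53% divergent) and the other at 70409762 to 70413251 (0.57% divergent). OCLNP1 was listed at 0 in both libraries. How reads that fit several places were counted is not given in the sources used here. If all 20 counts came from the 1069 bases without such a copy, OCLN would be at 0.151 TPM (0.0924 to 0.234), which is still under the 2.68 TPM of MARVELD2.

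F11R (ENSG00000158769, chromosome 1, 160995211 to 161021343, minus strand, 10 exons) had the most counts in both libraries. It had 20 Nanopore counts, 49.6 CPM (32.1 to 76.6), and 18449 Illumina counts, 96.2 CPM (94.8 to 97.6). Its Nanopore interval lay above those of all the other 8 genes.

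Of the 2 scaffold genes, 1 was expressed and 1 was near 0. TJP1 (ENSG00000104067, chromosome 15, 29699367 to 29968915, minus strand, 28 exons), whose protein ZO-1 anchors claudins, had 5 Nanopore counts, 12.4 CPM (5.30 to 29.0), and 9370 Illumina counts, 48.9 CPM (47.9 to 49.9). CGN (ENSG00000143375, chromosome 1, 151510510 to 151538692, plus strand, 21 exons), a ZO-1 partner, had 0 Nanopore counts and 27 Illumina counts, 0.141 CPM (0.0968 to 0.205).

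The depth of the Nanopore library could not show whether the genes at 0 were absent. At the Illumina CPM, the Nanopore total would give 0.0400 counts of CLDN4, 0.0421 of OCLN and 0.0568 of CGN, so Poisson sampling alone would leave each at 0 in 94.5 to 96.1% of cases. For the expressed genes the expectation was 38.8 counts of F11R (20 seen), 19.7 of TJP1 (5 seen), 8.31 of CLDN7 (5 seen), 3.09 of MARVELD2 (2 seen) and 1.51 of CLDN1 (2 seen). Expected from TPM in place of CPM, as fits reads that each stand for 1 strand, the numbers were 13.0 for F11R, 4.25 for TJP1, 8.35 for CLDN7, 1.08 for MARVELD2 and 0.679 for CLDN1.

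The comparison of the platforms asked whether the 2 libraries gave these genes the same share. Together the 9 genes held 34 Nanopore counts, 0.00843% of the library (95% Wilson interval 0.00603 to 0.0118%), and 34022 Illumina counts, 0.0177% (0.0176 to 0.0179%). The Nanopore share was 0.475 times the Illumina share (exact interval 0.329 to 0.664), and 0.427 times (0.234 to 0.717) without F11R. Divided by length, the 9 genes held 67.9 TPM of the Illumina library against 84.3 CPM of the Nanopore library (60.3 to 118, an interval that includes the Illumina value). That was by canonical length. With union exonic or mean transcript length the Illumina share was the higher, at 0.00924% and 0.0102% of TPM. Both values also lay within the Nanopore interval of 0.00603 to 0.0118%.

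An exact conditional binomial test was run on every gene whose mean reached 5 CPM, as 4 of the 9 did (F11R, TJP1, CLDN7 and MARVELD2). Their log2 ratios of Nanopore CPM + 1 over Illumina CPM + 1 were all below 0 on this scale, which takes no account of length, with a median of −0.82 against −0.42 for all 12414 genes tested. Adjusted p-values under 0.05 were found for 2 of the 4, both higher by Illumina, where 27.2% of all tested genes passed in that direction and 20.2% in the other. None of the 4 also passed a 4-fold ratio, which 7.31% of all tested genes did as higher by Illumina and 12.9% as higher by Nanopore. The same 2 genes had an unadjusted p under 0.05.

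TJP1 had the lowest ratio, a log2 value of −1.90 and a CPM ratio of 0.254 (exact interval 0.0824 to 0.592), and its exact p, Benjamini-Hochberg adjusted over all tested genes, was 0.000657. F11R followed at −0.94, a CPM ratio of 0.515 (0.315 to 0.796), with an adjusted exact p of 0.00415. CLDN7 was at −0.69, a ratio of 0.602 (0.195 to 1.41), and MARVELD2 at −0.54, a ratio of 0.648 (0.0784 to 2.34), with exact adjusted p-values of 0.451 and 0.902. For these last 2 genes, and for CLDN1 with a ratio of 1.32 (0.160 to 4.80), a difference was not detectable at 2 to 5 Nanopore counts.

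**Figure D3:**
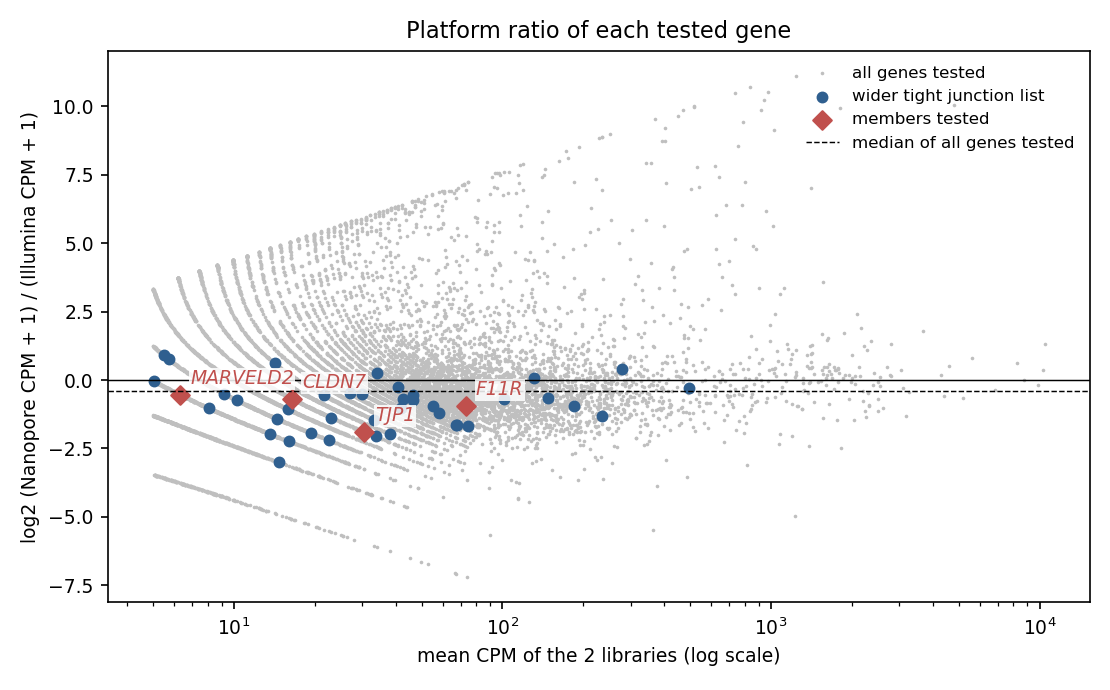
Log2 ratio of Nanopore CPM + 1 to Illumina CPM + 1 against the mean CPM (log axis) for the 12414 genes tested (grey), the 39 tested genes of the wider tight junction list (blue) and the 4 tested members (red, named); the dashed line is the median of all tested genes, −0.42. On this scale, without division by length, all 4 lie below 0, TJP1 the lowest at −1.90, and the curved grey bands are genes that share a low Nanopore count.

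Division by length removed both calls. Against Illumina TPM by canonical length, the Nanopore CPM was 1.54 times as high for F11R (0.942 to 2.38), 1.18 times for TJP1 (0.382 to 2.75), 0.599 times for CLDN7 (0.194 to 1.40), 1.85 times for MARVELD2 (0.224 to 6.69) and 2.95 times for CLDN1 (0.356 to 10.7). Every one of these intervals includes 1. By the same exact test the adjusted p was 0.166 for F11R and 0.962 for TJP1, and none of the 4 tested genes passed, where 31.4% of the 12350 genes with a length passed as higher by Nanopore on this scale and 9.86% as higher by Illumina. CLDN7, with the shortest canonical transcript of the 5, kept nearly the same ratio on both scales, and TJP1, with the longest, moved most, as follows from the division.

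**Figure D4:**
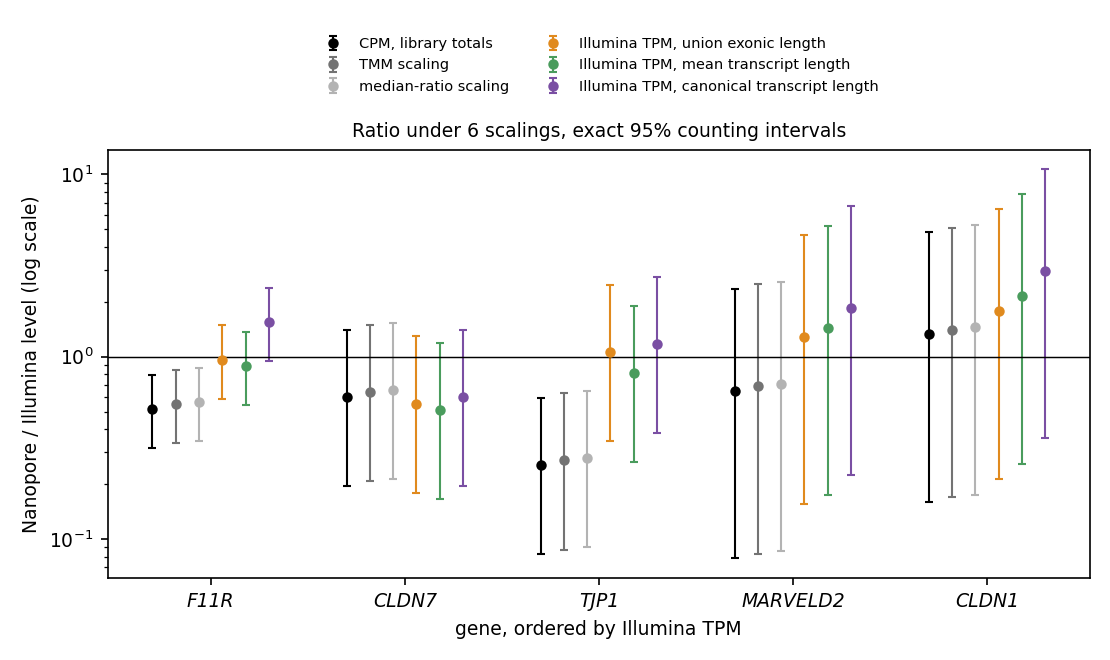
Ratio of the Nanopore to the Illumina level (log axis) for the 5 genes with counts in both libraries, under 6 ways of scaling, with exact 95% intervals for counting error. The first 3 points of TJP1 and F11R, scaled without length, lie below 1 with their intervals, and all intervals of the 3 length-scaled points include 1.

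Some of these counts lie where genes overlap or have copies. F11R overlaps ENSG00000270149, a protein-coding gene on the same strand (160997957 to 161038962) that reaches from the TSTD1 gene into F11R and shares 1853 exonic bases with it. ENSG00000270149 had 12 Nanopore and 7978 Illumina counts, while TSTD1 had 3 and 1357. The tables do not show how many of these counts are reads that F11R was given too. CLDN7 shares 269 exonic bases with ENSG00000262302, a protein-coding gene on the same strand (7246829 to 7262089) that extends over part of the CTDNEP1 gene. ENSG00000262302 had 52 counts by Nanopore against 2242 by Illumina, which gives log2 3.36 and a Benjamini-Hochberg adjusted exact p of 9.37e-34. It runs the length of ELP5, on the opposite strand, which had 40 and 11401 counts and whose end overlaps the end of CLDN7 by 38 bases, and it overlaps CTDNEP1, which had 41 and 21245 counts. The ratio of this gene was thus opposite in sign to that of CLDN7, whose body it shares in part. Whether counting used the strand is not given in the sources used here, and the part of overlap in the CLDN7 and F11R ratios was not tested.

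**Figure D5:**
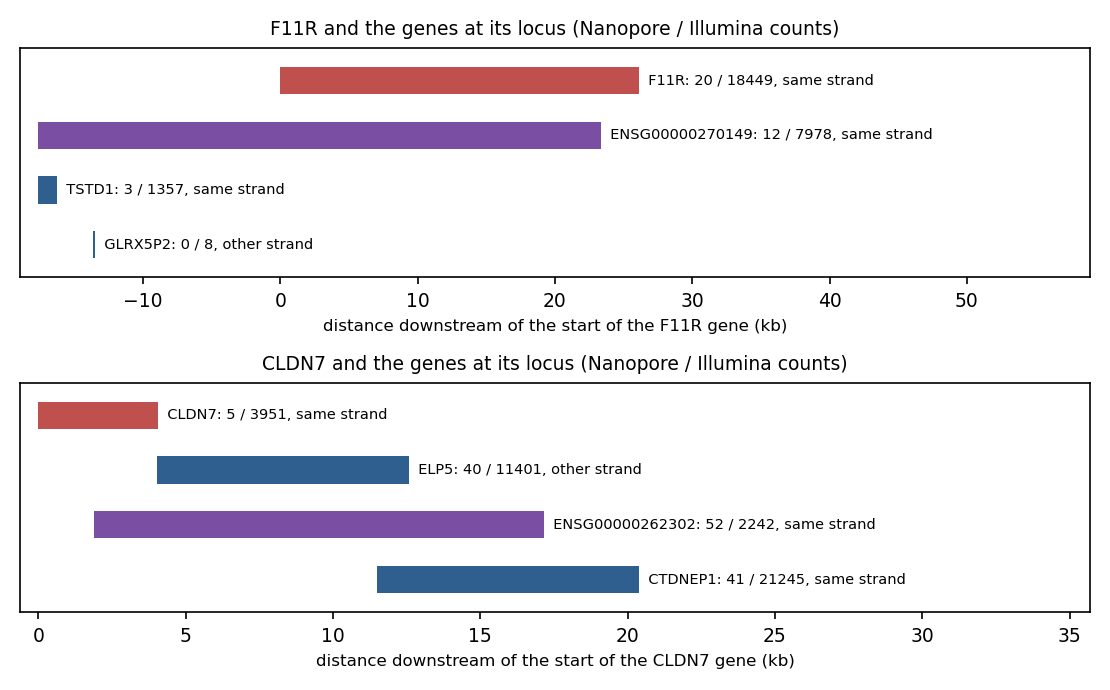
Gene bodies at the F11R locus (upper) and the CLDN7 locus (lower), drawn to scale in kb downstream of the start of each gene, with Nanopore and Illumina counts beside each bar; red is the member, purple the overlapping gene that spans 2 loci, blue the other genes. ENSG00000262302, which overlaps CLDN7, had 52 Nanopore counts against 5 for CLDN7.

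Within TJP1 lie the pseudogene HMGN2P5 on the opposite strand (1 count by Nanopore, 4267 by Illumina, log2 −2.74, adjusted exact p 0.00711) and the lncRNA ENSG00000259523 (0 and 42 counts). Neither shares an exon with it. The other 4 genes that overlap TJP1, CGN or OCLN share no exon with them and were at 0 in both libraries. Over its full length the TJP1 transcript also aligned to an alternate contig of chromosome 15 (0.06% divergent), the MARVELD2 transcript to one of chromosome 5 (0.07% divergent), and the OCLN transcript to the same contig (0.36% divergent). The Illumina table held 9370 counts of TJP1 and 1468 of MARVELD2 despite these copies. Whether the alternate contigs were part of the authors' reference is not given, and their part in the low TJP1 ratio was not tested. CLDN7 had a partial match at CLDN7P1 on chromosome X (16.1% divergent), which was at 0 in both libraries, and CLDN1, CLDN3, CLDN4, F11R and CGN aligned to no second place.

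A wider list of 72 tight junction genes, in 6 roles and separate from the 9, gave the setting. Nanopore detected 47 of them and Illumina 68, and 39 were tested. Of the 39, 20 were higher by Illumina (51.3%, beside 27.2% over all tested genes) and 1 was higher by Nanopore (2.56%, beside 20.2%), with a median log2 ratio of −0.93. By canonical length this split turned to 1 higher by Illumina and 11 higher by Nanopore (28.2%, against 31.4%). The median log2 ratio was then 0.75 against 0.48 for all genes. The split depended on the length used. By union exonic length 10 of 11 calls were higher by Nanopore, but by mean transcript length only 3 of 9. Shares over all tested genes are not given for these lengths. The median log2 ratio of all tested genes was 0.42 by union exonic and 0.072 by mean transcript length, against −0.42 without length. The 72 genes have an overlapping gene in 52 cases, and 5 of the 9 do.

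The log2 ratios by role below are those without division by length unless stated. On that scale 27.2% of all tested genes passed as higher by Illumina and 20.2% as higher by Nanopore. Where division by length is stated, it is by canonical transcript length. The claudins outside the set held 30 Nanopore counts over 16 genes, of which CLDN12 (15 and 5958 counts, log2 0.25) and the claudin-domain gene CLDND1 (14 and 11227 counts, 45.1 TPM) made up nearly all. Neither passed the test, though CLDN12 did after division by canonical length (1.38, adjusted exact p 0.00398). By mean transcript length its Illumina level was 31.8 TPM, beside 37.2 CPM by Nanopore. Both tested MARVEL and tricellular genes were higher by Illumina: MARVELD1 (46 and 34708 counts, 87.3 TPM) at a log2 ratio of −0.66 and LSR, the lipolysis-stimulated receptor that recruits tricellulin (11 and 10888 counts, 45.6 TPM), at −1.03. After division by canonical length these became 0.38 and −0.72, and neither passed (adjusted exact p 0.179 and 0.181). The canonical transcript of MARVELD1 has 3213 bases, while its transcripts have a mean of 1325.5. Its value therefore depends on the length used. Both genes stood far above MARVELD2 (2.68 TPM) and OCLN. Of the 3 tested adhesion molecules, CLMP (14 and 21988 counts, 35.3 TPM, close to the 32.1 TPM of F11R) was higher by Illumina at −1.70, and EPCAM (3 and 770 counts, 4.02 TPM) did not pass, with a ratio of 0.75.

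Among 10 tested scaffolds and adaptors, 6 were higher by Illumina (60%, beside 27.2% over all tested genes) and 1 higher by Nanopore (10%, beside 20.2%). YBX3, a ZO-1-binding transcription factor also known as ZONAB, was the gene higher by Nanopore, with 128 and 46475 counts, a log2 ratio of 0.39 (0.70 after division by length) and an adjusted exact p of 0.0103. TJP3, a paralogue of TJP1, had 1 and 8 counts, and CGNL1, the paralogue of CGN, had 0 and 55 counts. TJAP1 had 1 and 5172 counts and the lowest ratio of the list at −3.01, with an adjusted exact p of 0.00151. TJP3 and CGNL1 were named after their values were seen, as relatives of TJP1 and CGN.

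Of 9 tested polarity genes, 2 were higher by Illumina (22.2%, beside 27.2% over all tested genes). PRKCI, an atypical protein kinase C (15 and 8534 counts, 14.1 TPM), did not pass at −0.25. After division by canonical length its ratio was 1.34 (adjusted exact p 0.00543). That transcript has 4887 bases, while the transcripts of PRKCI have a mean of 1537, so this ratio depends on the length used. LLGL1 (3 and 6022 counts, 11.6 TPM) was higher by Illumina at −1.94. CRB3, the apical Crumbs protein described as scarce in MCF10A, had 1 and 176 counts and 1.31 TPM, and was named after its value was seen. Of 13 tested signalling and traffic genes, 9 were higher by Illumina (69.2%, beside 27.2% over all tested genes). Among them were RHOA (180 and 104998 counts, 470 TPM, ratio −0.29) and RAB13, a small GTPase of tight junction traffic (51 and 46522 counts, 323 TPM, ratio −0.93). ARHGEF11 (−2.07, and 0.071 after division by length), ARHGAP17 (−2.24) and MARK2 (−2.21) were, with TJAP1, the 4 genes of the list past the test and a 4-fold ratio, where 7.31% of all tested genes were so. RAB13 was also the gene that remained higher by Illumina after division by canonical length, at −1.35. It was not the only such gene by mean transcript length, where only 3 of 9 calls were higher by Nanopore.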

How the data were processed

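The authors deposited raw counts per gene for 1 Nanopore direct RNA and 1 Illumina library, without normalization. The submitters' processing notes name hg38, minimap2 2.11-r797, HISAT2 2.1.0 and featureCounts. Counting options, strand, annotation release, and whether Nanopore reads were corrected before mapping are not given in the sources used here. The 9 genes and the wider list were chosen with earlier results of these data known. GENCODE 44 (hg38) gave symbols, positions and lengths for 58207 of 58735 identifiers.

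Counts were divided by library totals (CPM). Illumina TPM used canonical transcript length. Genes whose mean reached 5 CPM were tested by a two-sided exact conditional binomial test with Benjamini-Hochberg adjustment over all of them, which compares these 2 libraries only. Ratios are log2 of CPM + 1, which understates differences of low genes. Amplified reads are not independent molecules, so the 95% intervals cover counting error only. Canonical transcripts of the 9 genes were aligned to hg38 with minimap2 2.31 (spliced mode). Tests were checked on simulated counts. TMM used edgeR 4.0.16. Alternatives were other filters, pseudocounts, scalings and lengths. The ratios between CLDN4, CGN and OCLN and the claudin order under other lengths were added after the data were seen. The wider-list genes named were the 2 with the highest TPM per role and those past both thresholds, besides the exceptions given, and 1 gene that this rule takes is not reported here.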

Additional observations from a re-analysis of the deposited data

How the results depend on the processing

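The pooled log2 Nanopore/Illumina ratio of the 9 genes was −1.06. TMM, median-ratio scaling, other pseudocounts and leaving out F11R (an alternative chosen after the data were seen) kept it within counting error. Median-ratio scaling raised the median of all tested genes by 0.12. Division by length took the pooled ratio to −0.13 (union exonic), −0.27 (mean transcript) and 0.31 (canonical transcript). Under all 3 lengths 0 of the 4 tested genes passed the adjusted p, against 2 without length. By canonical length 31.4% of all tested genes passed as higher by Nanopore and 9.86% as higher by Illumina. Among genes that overlap no other gene the number of the 9 that passed was also 0, since F11R and TJP1 are left out. The ratio of MARVELD2 became 0.29, 0.42 and 0.69 under the 3 lengths, that of TJP1 0.078 (union exonic) and 0.22 (canonical), and that of F11R 0.61 (canonical). For the wider list the calls went from 21 to 11, 9 and 12 under the union, mean and canonical lengths. Of these, 1 of the 21 was higher by Nanopore, against 10, 3 and 11 under the lengths. The median log2 ratio of all tested genes moved too, from −0.42 to 0.42, 0.072 and 0.48. Wider-list calls past 4-fold were 4 without length, all higher by Illumina. Under the lengths they were 2, 1 and 2, all higher by Nanopore and so other genes. A filter of 20 CPM without length left 2, both higher by Illumina. The Illumina share of the 9 genes was 0.0177% of counts and 0.00924%, 0.0102% and 0.00679% of TPM under these lengths. Nanopore detected 5 of the 9 genes at 1 count, 3 at 3 counts and 1 at 10 counts. The OCLN level over bases without a copy, chosen after the data were seen, was 0.151 TPM. No paired analysis was possible because each platform has 1 library without a replicate number. At 403235 Nanopore counts, differences could not be resolved for CLDN7, MARVELD2 and CLDN1, with 2 to 5 counts each.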
